A study of Danio rerio with 15 samples.

Results

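Innate RNA sensing genes encode the proteins by which a cell detects viral or misplaced self RNA and answers with interferon. The helicase IFIH1 (also called MDA5) and the endosomal receptor TLR3 recognise double-stranded RNA, the mitochondrial protein MAVS passes the helicase signal on, the kinase TBK1 phosphorylates the transcription factor IRF3, and IRF3 switches on interferon genes. Secreted interferon then acts through receptors and Janus kinases on interferon-stimulated genes such as isg15, a ubiquitin-like modifier, while TRIM25 is a ubiquitin ligase of the same pathway in mammals. Here 7 names of this pathway (TBK1, isg15, irf3, trim25, mavs, ifih1 and tlr3) were looked up, ignoring case, in a zebrafish count table. They gave 7 of its 32105 rows, 1 for each name. After the filter on low counts 18020 rows were tested, 6 of the 7 among them. The row of tlr3, with 46 counts over all libraries, did not pass.

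The counts come from poly(A) RNA of kdrl-positive cells, sorted as endothelial, from zebrafish embryos at 28 hours post fertilization. The 6 groups were sf3b1 mutants with constitutively active Stat3 (CA-Stat3, 3 libraries), sf3b1 mutants with wildtype Stat3 (WT-Stat3, 2 libraries), siblings with CA-Stat3 (3), siblings with WT-Stat3 (2), wildtypes with CA-Stat3 (3) and wildtypes with WT-Stat3 (2). Sf3b1 is a core protein of the splicing machinery, and the labels give neither the mutant allele nor the sf3b1 alleles of the siblings. Every group, wildtypes included, overexpressed Stat3, a transcription factor that answers to cytokines, so none of the groups shows the level without extra Stat3. The labels say neither how Stat3 was expressed nor whether the replicates are separate clutches, so each p-value measures only the spread among these libraries, part of which may be technical.

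Library totals were 3625121 to 8170371 counts, and mutant WT-Stat3 replicate 2 was the shallowest. In that library the row zgc:158463 held 39.5% of the counts, and the library stood farthest from the others on the first principal component. SF3B1, the mutated gene, had 81.8 to 108 CPM (counts scaled to each library's size after TMM normalization) in mutants, 157 to 172 CPM in siblings and 170 to 208 CPM in wildtypes. The endothelial marker kdrl was present in all libraries, at 457 to 882 CPM in mutants, 328 to 734 CPM in siblings and 521 to 819 CPM in wildtypes. The row STAT3 had 162 to 412 CPM with CA-Stat3 and 229 to 466 CPM with WT-Stat3. Whether it counts RNA of the added Stat3 was not tested. Markers of other cell types were also detected. Summed over the 11 of 14 listed macrophage and neutrophil markers found in the table, the level was 141 to 558 CPM in mutants, 1038 to 2755 CPM in siblings and 1219 to 2488 CPM in wildtypes, and 3 of the 11 were at 0 in mutant WT-Stat3 replicate 2. Summed over 9 of 12 erythroid markers, it was 1439 to 2918 CPM in mutants, 751 to 2267 CPM in siblings and 544 to 1346 CPM in wildtypes.

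In sf3b1 mutants isg15 was higher, while TBK1, irf3 and trim25 were lower, than in wildtypes and in siblings, averaged over both constructs. The RNA sensor IFIH1 was higher than in siblings. The adaptor mavs did not pass the test in these averages. With edgeR's quasi-likelihood test and a Benjamini-Hochberg (BH) adjusted p under 0.05, 1 of the 6 tested rows was higher and 3 were lower in mutants against wildtypes. Against siblings 2 were higher and 3 were lower. Over all tested genes the same rule called 28.7% in mutants against wildtypes (13.9% higher, 14.8% lower) and 26.2% in mutants against siblings (12.4% higher, 13.9% lower). The median log2 fold change of the 6 rows was -0.90 against wildtypes and -0.19 against siblings, and over all tested genes it was -0.03 and -0.02.

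**Figure D1:**
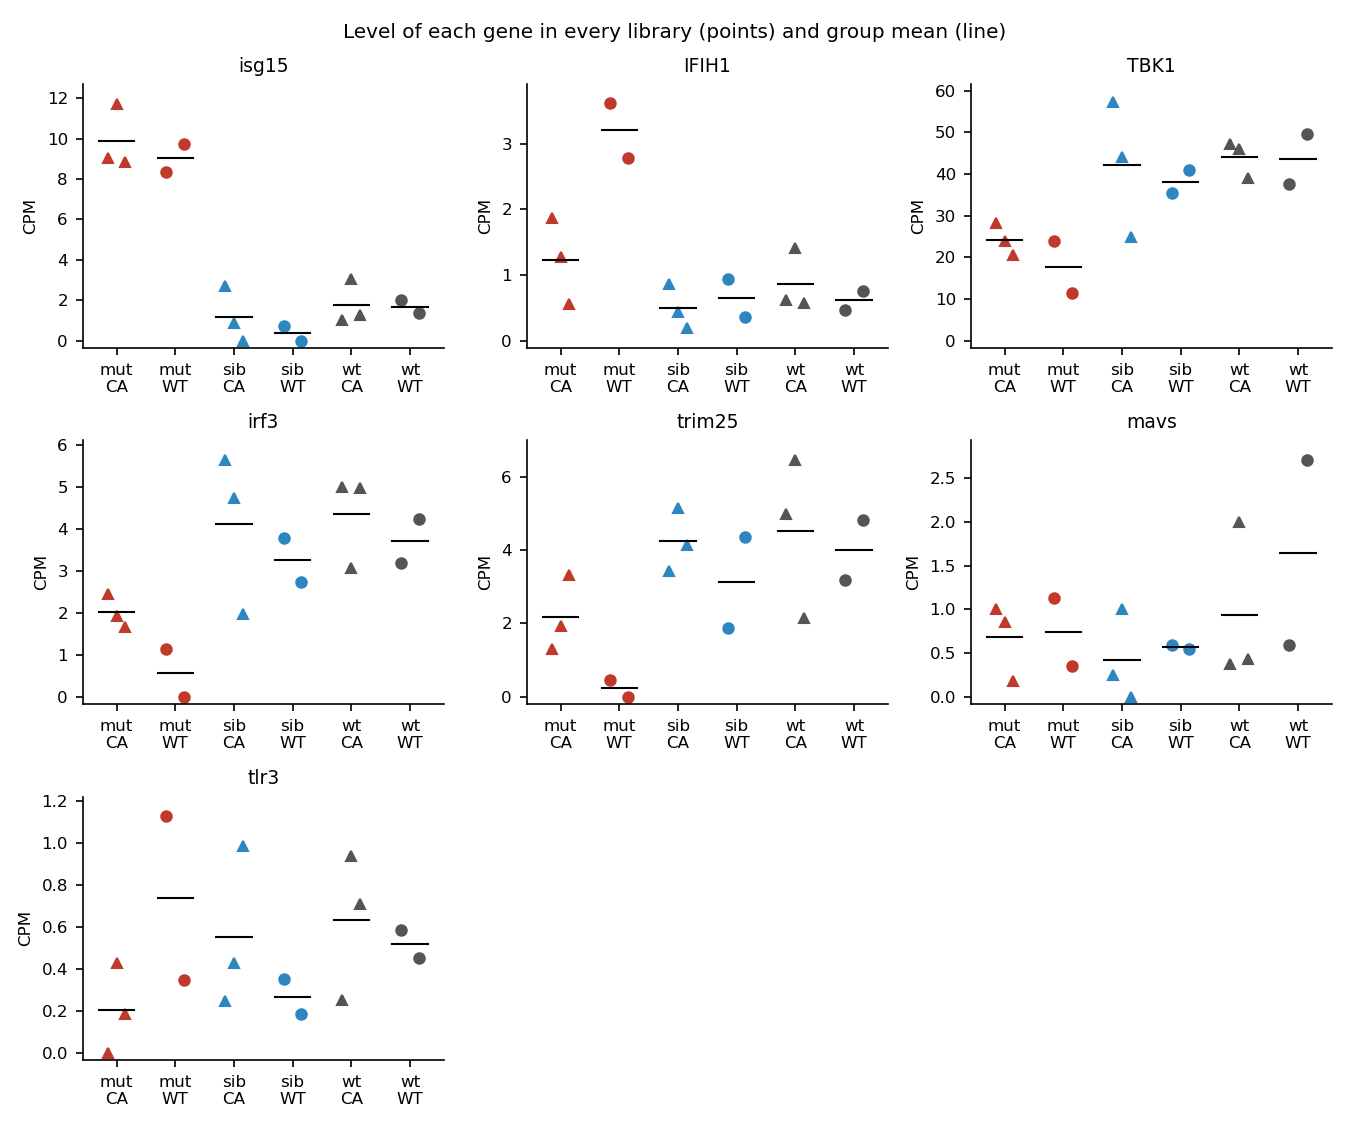
Level of each gene in CPM (vertical axis) in every library (triangles: CA-Stat3, circles: WT-Stat3) for mutants (red), siblings (blue) and wildtypes (grey), with each group's mean as a line. The 5 mutant libraries of isg15 lie between 8.36 and 11.7 CPM, above all 10 others.

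The sensor IFIH1 had 1.87, 1.28 and 0.551 CPM in mutants with CA-Stat3 and 3.62 and 2.78 CPM in mutants with WT-Stat3. In siblings it had 0.858, 0.429 and 0.197 CPM with CA-Stat3 and 0.941 and 0.364 CPM with WT-Stat3, and in wildtypes 0.623, 1.41 and 0.569 CPM with CA-Stat3 and 0.469 and 0.753 CPM with WT-Stat3. Both WT-Stat3 mutants lay above every other library, and the lowest CA-Stat3 mutant lay inside the range of siblings and wildtypes. The share of all tested genes with the WT-Stat3 mutants above all other libraries, or below them as for trim25, was not counted. The log2 fold change was 1.72 ± 0.55 (SE) against siblings (edgeR BH-adjusted p = 0.0298) and 1.44 ± 0.54 against wildtypes (edgeR BH-adjusted p = 0.0544, not called). These are low levels, with 46 counts over the 5 mutants, 21 over the 5 siblings and 30 over the 5 wildtypes. The call against siblings was lost when any of 6 libraries was left out, with edgeR BH-adjusted p up to 0.123 without sibling WT-Stat3 replicate 2. Against wildtypes 2 of the 15 libraries left out, mutant CA-Stat3 replicate 3 and wildtype CA-Stat3 replicate 2, brought IFIH1 past the threshold, and over all 15 the edgeR BH-adjusted p ran between 0.0399 and 0.183. Limma voom (adjusted p = 0.0496) and edgeR with the stricter filter (BH-adjusted p = 0.0494) also called it higher than in wildtypes.

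The receptor tlr3 was near the floor, with 9 counts over the 5 mutants, 14 over the 5 siblings and 23 over the 5 wildtypes. No library exceeded 1.13 CPM, where 3 counts correspond to 0.352 to 1.04 CPM depending on the library. The pooled ratio of mutants to wildtypes was 0.622, with an exact 95% interval of 0.253 to 1.39 that covers counting error only. A difference in tlr3 was not detectable at this depth.

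The adaptor mavs had 1.01, 0.853 and 0.184 CPM in mutants with CA-Stat3 and 1.13 and 0.348 CPM in mutants with WT-Stat3. Siblings had 0 to 1.001 CPM and wildtypes 0.374 to 2.71 CPM, so all 3 genotypes overlapped. The log2 fold change of mutants was -0.73 ± 0.76 against wildtypes (edgeR BH-adjusted p = 0.50) and 0.55 ± 0.83 against siblings (edgeR BH-adjusted p = 0.661). Its row holds 81 counts in all, and in the newer zebrafish annotation mavs overlaps 2 other genes. Without a stated strand setting, reads of overlapping genes cannot be told apart.

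TBK1 encodes the kinase on which the RNA sensing and DNA sensing routes converge. It had 28.2, 23.9 and 20.6 CPM in mutants with CA-Stat3 and 23.9 and 11.5 CPM in mutants with WT-Stat3. Siblings had 57.4, 44.1 and 24.8 CPM with CA-Stat3 and 35.3 and 40.9 CPM with WT-Stat3. Wildtypes had 47.2, 46.0 and 39.0 CPM with CA-Stat3 and 37.6 and 49.6 CPM with WT-Stat3. All 5 mutants lay below all 5 wildtypes, and sibling CA-Stat3 replicate 3 was the one sibling inside the mutant range. How many of all tested genes show this order against wildtypes was not counted, here and for irf3. The means were 21.6 ± 6.27 CPM in mutants, 40.5 ± 11.9 CPM in siblings and 43.9 ± 5.30 CPM in wildtypes (SD, n = 5 each). TBK1 fell by 1.06 ± 0.23 on the log2 scale (SE) against wildtypes (edgeR BH-adjusted p = 0.00243), and the fall against siblings was 0.94 ± 0.23 (edgeR BH-adjusted p = 0.0065). Fewer cells of a type and less RNA per cell cannot be told apart in such bulk samples, here and in all results that follow.

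The transcription factor irf3, the direct target of TBK1, had 2.44, 1.92 and 1.65 CPM in mutants with CA-Stat3 and 1.13 and 0 CPM in mutants with WT-Stat3. Siblings had 5.64, 4.72 and 1.97 CPM with CA-Stat3 and 3.76 and 2.73 CPM with WT-Stat3, and wildtypes had 4.98, 3.05 and 4.98 CPM with CA-Stat3 and 3.17 and 4.22 CPM with WT-Stat3. The mutants lay below all wildtypes, and again only sibling CA-Stat3 replicate 3 reached into their range. Pooled over libraries, 40 counts in mutants against 156 in wildtypes gave a ratio of 0.407 (exact 95% interval 0.280 to 0.580). The fitted fall was 1.77 ± 0.46 on the log2 scale (SE) against wildtypes (edgeR BH-adjusted p = 0.00847) and 1.66 ± 0.46 against siblings (edgeR BH-adjusted p = 0.0143). With limma voom and sample quality weights the call against siblings was lost (-1.89, adjusted p = 0.0545). Without mutant WT-Stat3 replicate 2, the library at 0, the fall against siblings was 1.27 with an edgeR BH-adjusted p of 0.0541. Without mutant WT-Stat3 replicate 1 that group keeps only the library at 0, and the fitted values of -4.37 and -4.25 then depend on the prior count. In the newer annotation irf3 overlaps fra10ac1.

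The ubiquitin ligase gene trim25 had 1.29, 1.92 and 3.31 CPM in mutants with CA-Stat3, and 0.452 and 0 CPM in mutants with WT-Stat3. Siblings had 3.43, 5.15 and 4.14 CPM with CA-Stat3 and 1.88 and 4.36 CPM with WT-Stat3, and wildtypes had 4.98, 6.46 and 2.13 CPM with CA-Stat3 and 3.17 and 4.82 CPM with WT-Stat3. The WT-Stat3 mutants were the lowest of all libraries, while the CA-Stat3 mutants overlapped siblings and wildtypes. Over the libraries 38 counts in mutants against 169 in wildtypes gave a ratio of 0.357 (exact 95% interval 0.244 to 0.510), and against 125 in siblings a ratio of 0.427 (0.289 to 0.618). The edgeR BH-adjusted p was 0.00301 against wildtypes, with a fitted log2 fold change of -2.43 ± 0.54 (SE), and 0.00785 against siblings, with -2.19 ± 0.55. The WT-Stat3 mutants hold 2 counts together, so these fitted averages lie below the pooled ratios, and they became -4.43 and -4.17 without mutant WT-Stat3 replicate 1. With limma voom and sample quality weights trim25 was no longer called (adjusted p = 0.0801 against wildtypes and 0.123 against siblings).

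The modifier isg15 is itself induced by interferon and is conjugated to other proteins. It had 9.05, 11.7 and 8.82 CPM in mutants with CA-Stat3 and 8.36 and 9.74 CPM in mutants with WT-Stat3. Siblings had 2.70, 0.858 and 0 CPM with CA-Stat3 and 0.706 and 0 CPM with WT-Stat3. Wildtypes had 0.997, 3.05 and 1.28 CPM with CA-Stat3 and 1.995 and 1.36 CPM with WT-Stat3. All 5 mutants lay above all 10 other libraries, an order that 6.14% of tested genes showed, while 4.87% had all 5 mutants below all others. It was the only one of the 7 rows with either order. The means were 9.54 ± 1.32 CPM in mutants, 0.852 ± 1.104 CPM in siblings and 1.74 ± 0.821 CPM in wildtypes (SD, n = 5 each). The log2 fold change was 2.42 ± 0.52 (SE) against wildtypes (edgeR BH-adjusted p = 0.00262) and 3.66 ± 0.59 against siblings (edgeR BH-adjusted p = 0.000392). Pooled over libraries, 231 counts in mutants against 69 in wildtypes gave a ratio of 5.32 (exact 95% interval 4.05 to 7.06), and against 34 in siblings a ratio of 9.54 (6.63 to 14.1). The fitted value against siblings became 5.85 without sibling WT-Stat3 replicate 1, since the other sibling WT-Stat3 library is at 0.

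**Figure D2:**
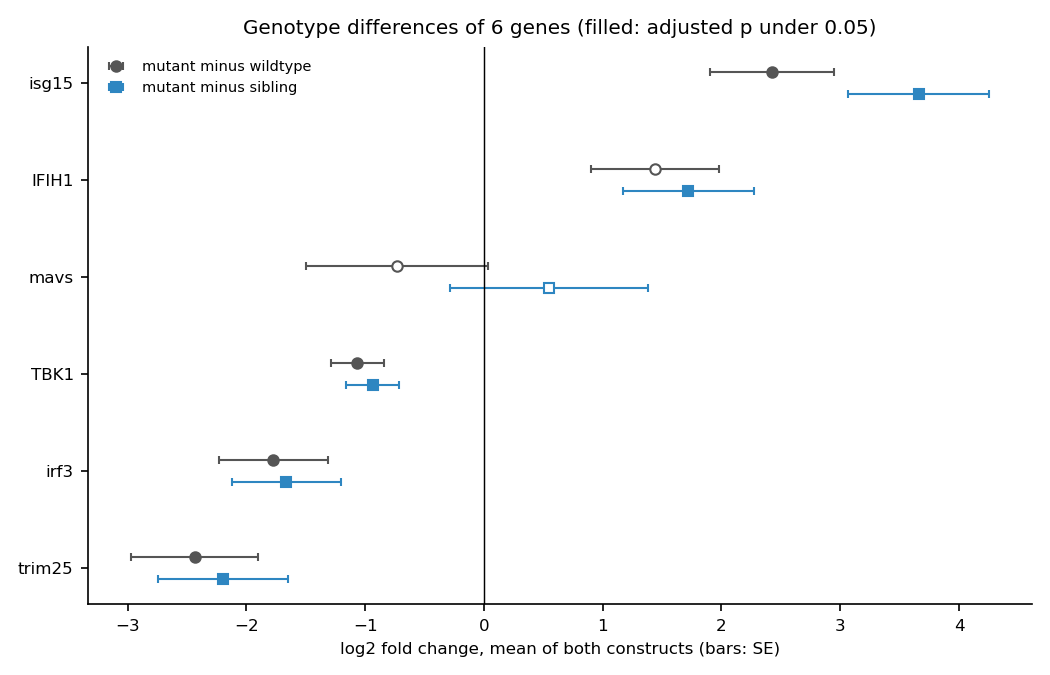
Log2 fold change (horizontal axis, bars: SE) of 6 tested rows in mutants minus wildtypes (grey circles) and mutants minus siblings (blue squares), averaged over constructs, with filled symbols where the edgeR BH-adjusted p is under 0.05. The values run between 3.66 for isg15 against siblings and -2.43 for trim25 against wildtypes.

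Within constructs fewer rows were called. With WT-Stat3, mutants against wildtypes had 3 of 6 rows called, TBK1, irf3 and trim25, all lower (all genes: 12.1%). In that comparison isg15 at 2.402 and IFIH1 at 2.38 (log2) were higher but not called (edgeR BH-adjusted p = 0.0642 and 0.0744). Of 7 alternatives that kept all libraries, 2 called isg15 higher there, DESeq2 (adjusted p = 0.0108) and edgeR with no filter (adjusted p = 0.00793). With CA-Stat3, mutants against wildtypes had isg15 higher and TBK1 lower (all genes: 14.7%). Against siblings, isg15 was higher and trim25 lower with WT-Stat3 (all genes: 7.48%). There isg15 alone was called with CA-Stat3 (all genes: 15.8%), at 2.92 ± 0.68 (log2, SE) with an edgeR BH-adjusted p of 0.00855. That isg15 value was 4.31 without sibling CA-Stat3 replicate 1, the sibling with the highest level. For trim25 with WT-Stat3, 2 counts in mutants against 59 in wildtypes gave a pooled ratio of 0.0704 (exact 95% interval 0.00833 to 0.266). TBK1 was not called against siblings with WT-Stat3 (-1.08, edgeR BH-adjusted p = 0.0744) or with CA-Stat3 (-0.80, edgeR BH-adjusted p = 0.0629). It was called in both by DESeq2 (adjusted p = 0.0319 and 0.0302), by edgeR with no filter (0.00983 and 0.0115) and with the replicate number as a block (0.0386 and 0.0452), and by limma voom with CA-Stat3 (0.0197) but not with WT-Stat3 (0.191). These counts depend on single libraries. Over the 15 libraries left out in turn, irf3 with WT-Stat3 and TBK1 with CA-Stat3 kept their calls against wildtypes in 4 and 5 fits. Without mutant WT-Stat3 replicate 2 none of the 6 rows was called with WT-Stat3 against either wildtypes or siblings, and the same held against wildtypes without wildtype WT-Stat3 replicate 2 and against siblings without sibling WT-Stat3 replicate 2. Without mutant CA-Stat3 replicate 2, wildtype CA-Stat3 replicate 1 or wildtype CA-Stat3 replicate 3, none was called with CA-Stat3 against wildtypes.

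Siblings did not differ detectably from wildtypes in any of the 6 rows. EdgeR called 0 of them and 0% of all genes, none of the 6 had an unadjusted p under 0.05 (1712 of all genes did), and DESeq2 called 12 of all genes and limma voom 0. The largest sibling difference was that of mavs, at -1.28 ± 0.75 (log2, SE) with an edgeR BH-adjusted p of 0.603, followed by isg15 at -1.24 ± 0.63 with an edgeR BH-adjusted p of 0.557.

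The active and the wildtype construct were compared next. Averaged over genotypes edgeR called 0 of the 6 rows and 0% of all genes, against 2286 genes at an unadjusted p under 0.05, 133 by DESeq2 and 1 by limma voom. Of the 6 rows, trim25 alone had an unadjusted p under 0.05. Its value was 1.19 ± 0.42 (log2, SE), with an edgeR BH-adjusted p of 0.279. In mutants alone, 36 counts of trim25 with CA-Stat3 against 2 with WT-Stat3 gave a pooled ratio of 7.69 with an exact 95% interval of 1.98 to 65.9. That interval covers counting error only and leaves out the spread among libraries. With that spread the value was 2.92 ± 0.96 (log2, SE), not called (edgeR BH-adjusted p = 0.375). The CA-Stat3 mutants also held more macrophage and neutrophil marker RNA (377 to 558 CPM) than mutant WT-Stat3 replicate 2 (141 CPM). Mutant WT-Stat3 replicate 1, however, lay inside their range of marker RNA (392.001 CPM), with a trim25 level of 0.452 CPM against 1.29 to 3.31 CPM in the CA-Stat3 mutants. The part of these cells in the result was not tested.

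**Figure D3:**
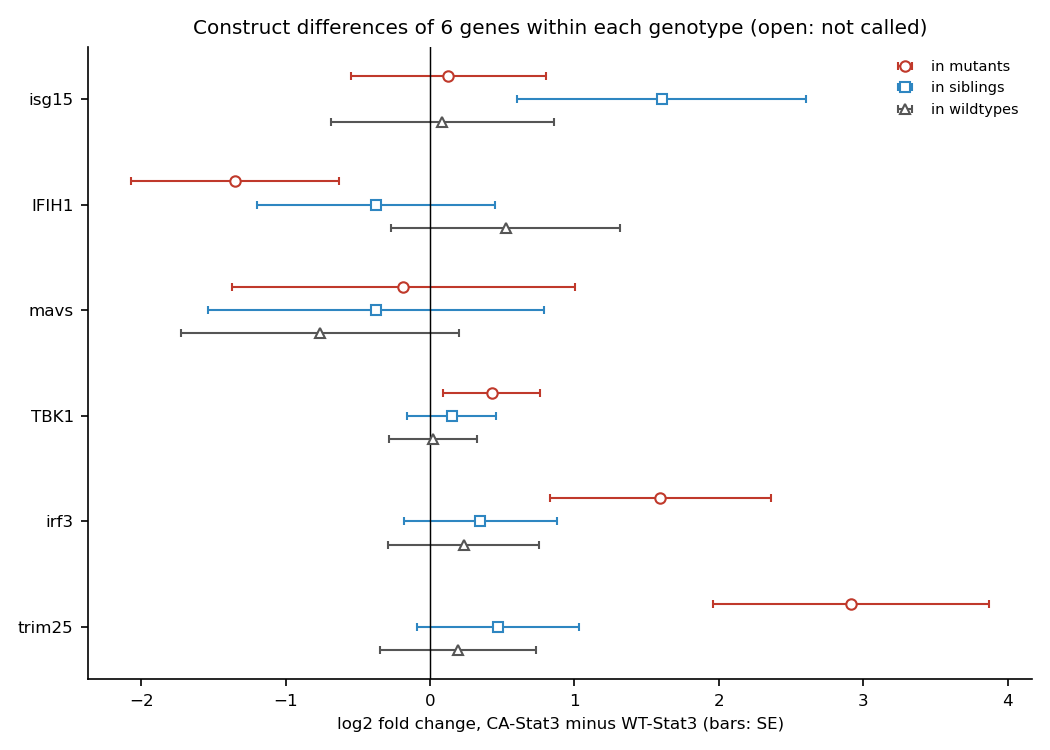
Log2 fold change (horizontal axis, bars: SE) of 6 tested rows in CA-Stat3 minus WT-Stat3 within mutants (red circles), siblings (blue squares) and wildtypes (grey triangles). All symbols are open, because 0 rows were called in any genotype, and the value of trim25 in mutants rests on 2 counts in the WT-Stat3 group.

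Within mutants, siblings and wildtypes edgeR called 0 of the 6 rows and 0% of all genes for the construct, and 1845, 753 and 725 genes had an unadjusted p under 0.05. DESeq2 called 56, 1 and 3 genes. Whether the mutant difference depended on the construct was tested as an interaction. Against wildtypes and against siblings edgeR again called 0 of the 6 rows and 0% of all genes, with 929 and 992 genes at an unadjusted p under 0.05, and DESeq2 called 1 and 0. The unadjusted p of trim25 was 0.0269 against wildtypes, and its edgeR BH-adjusted p was 0.926. A p that misses the threshold does not show that the mutant differences were alike with both constructs. For isg15 the mutant to wildtype difference was 2.44 ± 0.65 with CA-Stat3 and 2.402 ± 0.81 with WT-Stat3 (log2, SE), and with CA-Stat3 it was 3.10 without wildtype CA-Stat3 replicate 2. The mutant to sibling difference of isg15 was 2.92 ± 0.68 with CA-Stat3 and 4.40 ± 0.97 with WT-Stat3, where the siblings hold 6 counts. The sibling interaction was -1.48 ± 1.20 (edgeR BH-adjusted p = 0.917).

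The order of the 6 group means differed by gene. For isg15 it was mutants with CA-Stat3 and with WT-Stat3 (9.87 and 9.05 CPM), then wildtypes with CA-Stat3 and with WT-Stat3 (1.78 and 1.68 CPM), then siblings with CA-Stat3 and with WT-Stat3 (1.19 and 0.353 CPM). The single gap without overlap between neighbours was the one below the mutants. For TBK1 the means of the 4 non-mutant groups lay between 38.1 and 44.1 CPM, and these groups overlapped as neighbours. The mutants came below, with CA-Stat3 at 24.2 CPM and with WT-Stat3 at 17.7 CPM, and overlapped each other. The mutants with CA-Stat3 did not overlap the siblings with WT-Stat3, the next group above. They did overlap the siblings with CA-Stat3, whose lowest library had 24.8 CPM, below the highest CA-Stat3 mutant at 28.2 CPM. For irf3 the mutants were also the 2 lowest groups, at 2.01 CPM with CA-Stat3 and 0.565 CPM with WT-Stat3, and here these did not overlap. The construct difference of irf3 in mutants was not called, at 1.60 ± 0.77 (log2, SE; edgeR BH-adjusted p = 0.492). For trim25 the mutants with CA-Stat3 (2.17 CPM) overlapped the siblings with WT-Stat3 (3.12 CPM) above them, and the mutants with WT-Stat3 (0.226 CPM) stood alone at the bottom. IFIH1 was highest in mutants with WT-Stat3, at 3.199 CPM, and all other groups, between 0.495 and 1.23 CPM, overlapped as neighbours. For mavs every pair of neighbours overlapped. These groups hold 2 or 3 libraries each, and the share of all tested genes with such gaps between neighbours was not counted.

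Markers of white blood cells were lower in mutants, as were mesenchymal markers and part of the neural markers. All 11 macrophage and neutrophil markers were called lower in mutants against wildtypes (all genes: 14.8% lower), with a median log2 fold change of -2.398. Against siblings 10 of 11 were called lower (all genes: 13.9% lower), with a median of -2.002. Sibling CA-Stat3 replicate 3, which had the lowest TBK1 and irf3 of the siblings, also had the lowest marker sum of the siblings, 1038 CPM. Its trim25, at 4.14 CPM, was not low among siblings. It also had the highest sum of 4 muscle markers, 4292 CPM against 26.5 to 1787 CPM in the other 14 libraries, and the lowest sum of 12 endothelial markers, 1910 CPM against 3068 CPM or more. In mutants, WT-Stat3 replicate 2 had the lowest TBK1, irf3 and trim25 and the lowest marker sum. Of the 9 erythroid markers 6 were called higher in mutants against wildtypes and 4 against siblings (all genes: 13.9% and 12.4% higher), while isg15 was higher in mutants. Mesenchymal markers summed to 192 to 291 CPM in mutants, 384 to 1323 CPM in siblings and 723 to 1377 CPM in wildtypes. All 4 were called lower in mutants against wildtypes and against siblings. Neural markers summed to 85.5 to 222 CPM in mutants, 291 to 519 CPM in siblings and 147 to 323 CPM in wildtypes. Of 7 neural markers 4 were called lower in mutants against wildtypes and 6 against siblings. Of 12 endothelial markers 1 was called higher in mutants against wildtypes and 5 against siblings (all genes: 13.9% and 12.4% higher), and 0 lower. Of 4 muscle markers 0 were called against wildtypes and 3 were called lower against siblings. Of 6 epidermal markers 2 were called lower against wildtypes and 1 against siblings (all genes: 14.8% and 13.9% lower). The part of these cell types in the results was not tested.

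**Figure D4:**
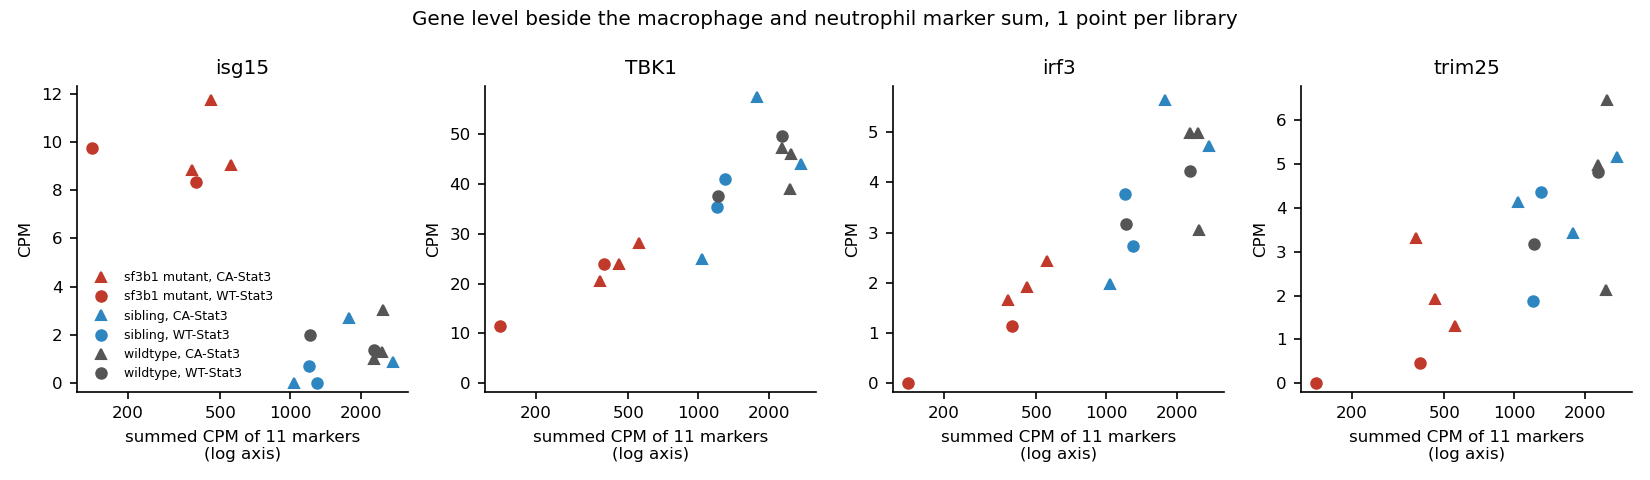
Level of isg15, TBK1, irf3 and trim25 in CPM (vertical axes) against the summed CPM of 11 macrophage and neutrophil markers (horizontal log axes), 1 point per library, with mutants in red, siblings in blue and wildtypes in grey. Mutants lie at marker sums of 141 to 558 CPM and all other libraries at 1038 CPM or more.

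The genes whose log2 CPM ran most like each row over the 15 libraries were listed as a description, since the libraries share genotype and marker content. For TBK1 the 3 closest were PLEK, which encodes pleckstrin (Pearson r = 0.96), the connexin gene gja13.2 (r = 0.96) and the keratin gene krt18b (r = 0.95). For irf3 they were pstpip2, the integrin gene itgb7 and PLA2G7 (r = 0.97 each). For trim25 they were IRF8, a transcription factor of macrophage development (r = 0.93), the cyclophilin gene ppiab (r = 0.93) and SACM1L (ENSDARG00000015290, r = 0.92). For isg15 the closest gene was tpd52l2a (r = 0.98), followed by CTU1 (r = 0.95), which encodes a transfer RNA thiolation enzyme, and cica (r = 0.93). For mavs it was TFE3 (r = 0.87) and for IFIH1 it was CLOCK (ENSDARG00000003631, r = 0.89). Within the 10 libraries that were not mutant, the values for TBK1 were 0.76 with PLEK, 0.76 with gja13.2 and 0.84 with krt18b. Those for irf3 were 0.83 with pstpip2, 0.80 with itgb7 and 0.91 with PLA2G7, and those for trim25 were 0.64 with IRF8, 0.66 with ppiab and 0.71 with SACM1L. For isg15 with tpd52l2a the value was 0.93, where isg15 had 0 to 26 counts per library. All these genes were picked over the 15 libraries, which include the 10, so the values within the 10 are not independent of the choice.

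The share of the other pathway genes that changed was near that of all genes against wildtypes and below it against siblings, and no test set the list against other genes. Of 103 other listed genes 83 were found in the table and 55 were tested. In mutants against wildtypes 6 rose and 10 fell, or 29.1% of the 55, where 28.7% of all genes were called (13.9% higher, 14.8% lower). Their median log2 fold change was -0.27, and over all genes it was -0.03. Against siblings 5 rose and 6 fell, or 20%, where 26.2% of all genes were called. Siblings against wildtypes and CA-Stat3 against WT-Stat3 gave 0 by edgeR, with 1 and 3 of the 55 at an unadjusted p under 0.05, and DESeq2 called 0 and 1. For the construct, IRF8 had the smallest unadjusted edgeR p of the 55, 0.000804. Its value was 1.22 ± 0.30 (log2, SE), with an edgeR BH-adjusted p of 0.194, not called. Without mutant WT-Stat3 replicate 2, which leaves 1 library in its group, fewer of the 55 were called in mutants against wildtypes. The share of all genes called in that fit is not given here. A loss particular to the pathway can therefore not be read from it.

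Among sensors and adaptors 3 of 11 fell and 0 rose in mutants against wildtypes (all genes: 14.8% lower), and against siblings 1 of 11 fell (all genes: 13.9% lower). UNC93B1, which escorts nucleic acid receptors to endosomes, averaged 2.71 ± 1.69 CPM in mutants and 13.9 ± 5.24 CPM in wildtypes (SD, n = 5 each), a fall of 2.27 ± 0.42 (log2, SE; edgeR BH-adjusted p = 0.000865). DHX58, a helicase of the IFIH1 family, fell by 1.71 ± 0.53 (edgeR BH-adjusted p = 0.0241), and MYD88, the adaptor of most Toll-like receptors, fell by 0.70 ± 0.20 (edgeR BH-adjusted p = 0.0154). Against siblings UNC93B1 was the one that fell, by 1.62 ± 0.43 (edgeR BH-adjusted p = 0.0108), while DHX58 at -1.07 ± 0.55 and MYD88 at -0.31 ± 0.20 were not called (edgeR BH-adjusted p = 0.16 and 0.264). The RNA-editing enzyme gene adar did not pass, at 0.34 ± 0.14 (edgeR BH-adjusted p = 0.0691).

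Of 10 other kinases 3 rose and 2 fell in mutants against wildtypes (all genes: 13.9% higher, 14.8% lower). The same 5 were called in the same directions against siblings (all genes: 12.4% higher, 13.9% lower). TYK2, a Janus kinase of interferon receptors, averaged 30.1 ± 5.80 CPM in mutants and 9.89 ± 2.28 CPM in wildtypes (SD, n = 5 each), with a log2 fold change of 1.65 ± 0.24 (SE; edgeR BH-adjusted p = 0.000137). CHUK, a kinase of the NF-kappaB route, rose by 1.101 ± 0.15 and jak2a, another Janus kinase, by 1.08 ± 0.18. IKBKE, the closest relative of TBK1, fell like TBK1, to 5.23 ± 2.52 CPM in mutants against 13.2 ± 2.04 CPM in wildtypes (SD, n = 5 each), by 1.31 ± 0.30 (log2, SE; edgeR BH-adjusted p = 0.00371). JAK1, named after its values were seen, was the other kinase that fell, by 0.47. Of the ubiquitin-type modifiers and feedback regulators 3 more were tested and 0 were called by edgeR, namely TNFAIP3 at -0.63 ± 0.36, uba7 at 0.14 ± 0.43 and NLRX1 at -0.06 ± 0.28. Of 10 other transcription factors 2 fell against wildtypes (all genes: 14.8% lower). These were IRF8, by 2.24 ± 0.38 (edgeR BH-adjusted p = 0.000403), and irf1b, by 0.55 ± 0.18 (edgeR BH-adjusted p = 0.0304). Both were also called lower against siblings (all genes: 13.9% lower). IRF7, which amplifies interferon production, had -0.90 ± 0.34 (edgeR BH-adjusted p = 0.0566), and irf1a had 1.24 ± 0.51 (edgeR BH-adjusted p = 0.0748), neither of them called.

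**Figure D5:**
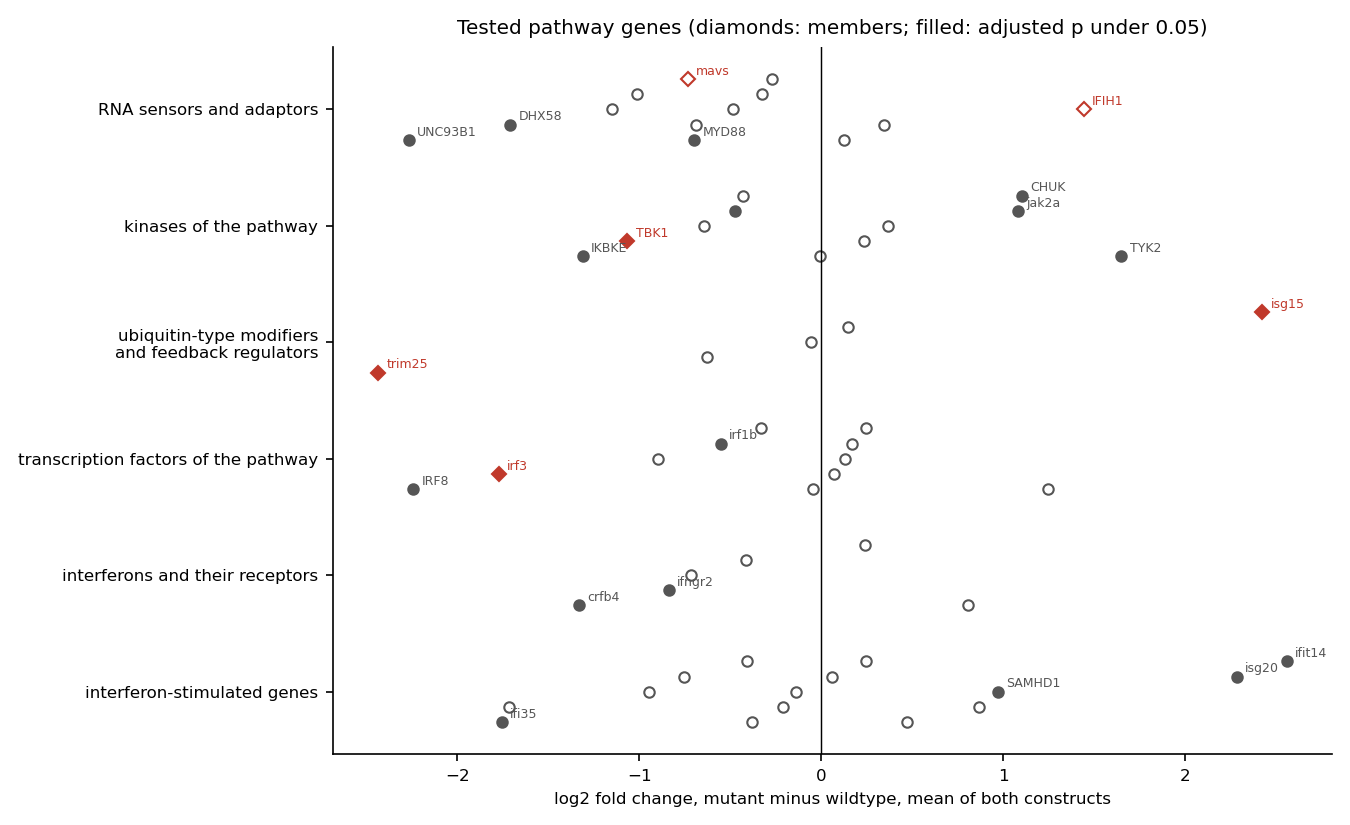
Log2 fold change of mutants minus wildtypes, averaged over constructs (horizontal axis), of the tested pathway genes by list, with diamonds for the genes looked up by name and filled symbols where the edgeR BH-adjusted p is under 0.05. Called genes lie on both sides of 0, between -2.43 for trim25 and 2.56 for ifit14.

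Among the 6 tested genes listed as interferon receptors 2 fell in mutants against wildtypes (all genes: 14.8% lower). These were ifngr2, by 0.84 ± 0.23 (edgeR BH-adjusted p = 0.0125), and crfb4, by 1.33 ± 0.38 (edgeR BH-adjusted p = 0.0152). The gene crfb4 was also listed as il10rb, the name of an interleukin receptor gene. Against siblings crfb4 alone of the 6 fell (all genes: 13.9% lower), by 1.21 ± 0.38 (edgeR BH-adjusted p = 0.0289). There ifngr2 was not called, at -0.61 ± 0.23 (edgeR BH-adjusted p = 0.0611). The interferon genes themselves were near the floor. The 4 ifnphi genes and ifng1 together had 25 counts over the mutants, 17 over the siblings and 19 over the wildtypes. Scaled to library size, their sum was 0 to 2.16 CPM in mutants (median 0.226). It was 0.143 to 0.788 CPM in siblings (median 0.613) and 0 to 1.62 CPM in wildtypes (median 0.142). All were too low to test, so a change in interferon transcripts was not tested. The gene ifng1r, also too low to test, is not in these sums and is described under the other observations. Of 15 tested interferon-stimulated genes other than isg15, 3 rose and 1 fell in mutants against wildtypes (all genes: 13.9% higher, 14.8% lower). The exonuclease gene isg20 averaged 55.9 ± 14.6 CPM in mutants and 11.6 ± 2.59 CPM in wildtypes (SD, n = 5 each), a log2 fold change of 2.28 ± 0.21 (SE; edgeR BH-adjusted p = 1.63e-06). SAMHD1, which breaks down deoxynucleotides, rose by 0.97 ± 0.21 (edgeR BH-adjusted p = 0.00273). The low gene ifit14 had 1.33 ± 0.726 CPM in mutants and 0.224 ± 0.261 CPM in wildtypes (SD, n = 5 each; edgeR BH-adjusted p = 0.0419), and ifi35 fell by 1.76 ± 0.55 (edgeR BH-adjusted p = 0.0244), neither of which was called against siblings. The other 11 did not pass. A further 15 interferon-stimulated genes of the list were too low to test, and their summed level was 3.13 to 5.17 CPM in mutants, 2.82 to 5.76 CPM in siblings and 3.05 to 4.67 CPM in wildtypes. Against siblings isg20 and SAMHD1 were the 2 of 15 that rose, by 2.06 ± 0.21 and 1.25 ± 0.21, and none fell (all genes: 12.4% higher, 13.9% lower).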

How the data were processed

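Poly(A) RNA of 15 libraries was counted, grouped by sample title, and 0 columns lacked a sample. The authors deposited raw counts for each Ensembl gene. The submitters' processing notes name GRCz10 as build and, as tools with no stated role, STAR 2.4.2a, featureCounts, Trim Galore, Picard and DESeq2. Annotation, strand setting and multi-mapping rule were not given in the sources used here. Symbols came from a gene-name table that named 26269 of 32105 identifiers. The genes looked up were matched by name in a RefSeq annotation of another build, and genes that overlap them there were found by position. No sequences were used and promoter motifs were not analysed here.

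Counts were fitted with edgeR 4.0.16 in R 4.3.3 after filterByExpr by group (minimum count 10, minimum total 15) and TMM scaling, in a model of the 6 groups over all 15 libraries (9 residual degrees of freedom). Its quasi-likelihood test gave 13 comparisons, each BH-adjusted over 18020 genes with a threshold of 0.05. A standard error is the size of the log2 fold change divided by the root of its F statistic. CPM used TMM-scaled totals, and log2 CPM for correlations had a prior count of 2. Pooled ratios set summed counts over summed scaled totals, with exact 95% intervals that cover counting error only, and the floor was 3 counts. The code was tested on simulated data.

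The genes, lists, tests and markers were chosen with earlier results of these data known. Named pathway genes were, in each of 6 lists, the 4 with the smallest p against wildtypes and the 1 with the smallest p for the construct. Not all of them are printed. For each tested row the 3 most correlated genes with a symbol were found. Listed symbols not in the table are not analysed here, and an item of the rule is not reported here. The sums of untested genes, and counts of other pathway genes under each alternative, were added after seeing the data. Alternatives were RLE size factors, limma 3.58.1 with voom and quality weights, DESeq2 1.42.0, a replicate block, no filter, a stricter one (a total of 50 and 1 CPM in at least 5 libraries), leaving out each library and, chosen after seeing the data, leaving out the most abundant row. A library left alone in its group by this is assumed to vary like the other groups.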

Additional observations from a re-analysis of the deposited data

How the results depend on the processing

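The calls of TBK1, isg15, irf3 and trim25 in mutants against wildtypes, averaged over constructs, held with each of the 15 libraries left out. Over these the counts of called rows were 4 to 5 against wildtypes and 4 to 5 against siblings on average, 0 to 4 (WT-Stat3) and 0 to 2 (CA-Stat3) against wildtypes, and 0 to 4 (WT-Stat3) and 1 to 2 (CA-Stat3) against siblings. Limma voom lost trim25 (adjusted p = 0.0801) and gained IFIH1 (adjusted p = 0.0496) against wildtypes on average. It called 3 rows against siblings on average, losing irf3 and trim25, 0 with WT-Stat3 against wildtypes and 0 against siblings, and 2 with CA-Stat3 against siblings. DESeq2 and no filter also called 2 there, and no filter called 4 with WT-Stat3 against siblings. The causes were not tested. Over all genes the main fit called 28.7% against wildtypes and 26.2% against siblings on average. The number of all genes called in these averages also moved as libraries were left out. Other pathway genes called numbered 9 to 19 against wildtypes, 9 to 16 against siblings and 0 to 1 for the construct with libraries left out, where DESeq2 and no filter called 1. For all genes, limma voom called 998 (WT-Stat3) and 4018 (CA-Stat3) against wildtypes and 537 (WT-Stat3) against siblings, and no filter 2079, where edgeR called 2177, 2646 and 1347. With libraries left out these were 662 to 2730, 1383 to 2973 and 285 to 2041, and 1372 to 3183 around 2847 with CA-Stat3 against siblings. Where edgeR called 0, no filter called 258 for siblings against wildtypes, 386 for the construct average, 110, 8 and 13 for the construct in mutants, siblings and wildtypes, and 8 and 10 for the interactions. With no filter all 27820 rows with a count were tested, and in the main fit 18020. The counts of the 2 fits, also the 2079 above, therefore do not share a base. Of the fits with a library left out, the one without mutant WT-Stat3 replicate 1 called the most genes for the construct average. It also called the most for the construct in mutants and for both interactions. That fit keeps only replicate 2 in its group, the shallowest library, so its counts are not given.

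With the replicate number as a block, 2 rows instead of 1 were called with CA-Stat3 against siblings, TBK1 joining isg15 (adjusted p = 0.0452), 3 instead of 2 with WT-Stat3, again by TBK1 (adjusted p = 0.0386), and for all genes the construct average called 28. Over 21 same-numbered pairs the correlation of deviations was -0.15 to 0.34, with 7 over 0.1. In a group of 2 libraries the deviations are mirror images, so the WT-Stat3 pairs repeat their values and are not separate. These correlations therefore cannot show whether equal numbers mark a shared clutch or batch. The labels do not say so either, and the main fit did not use the numbers as pairs.

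Of 36 values that changed sign, none was called, in either fit. Of these 4 were not from leaving out a library: isg15 for the construct in wildtypes (-0.18) and mavs in the sibling interaction (-0.0336) with limma voom, mavs for the construct in mutants with the replicate block (0.13), and TBK1 for the construct in wildtypes without the most abundant row (-0.00048). The others, as log2 ranges over the libraries left out, follow. For mavs they were -0.0408 to 1.28 (mutants against siblings), -0.71 to 0.97 (the same with WT-Stat3), -2.22 to 0.36 (mutants against wildtypes with WT-Stat3), -0.68 to 0.97, -1.84 to 0.0938 and -1.52 to 0.66 (construct in mutants, siblings and wildtypes), -0.93 to 0.0423 (construct average), and -0.82 to 1.75 and -0.31 to 1.65 (wildtype and sibling interactions). For isg15 they were -0.0115 to 0.25 and -0.57 to 0.38 (construct in mutants and wildtypes) and -0.24 to 0.70 (wildtype interaction). For TBK1 they were -0.14 to 0.41 and -0.19 to 0.22 (construct in siblings and wildtypes) and -0.12 to 0.94 (sibling interaction). For trim25 they were -0.0380 to 1.16 and -0.15 to 0.51, and for IFIH1 -1.02 to 0.50 and -0.0153 to 0.86 (construct in siblings and wildtypes). For irf3 they were -0.26 to 0.0328 (siblings against wildtypes).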

Other observations

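The interferon gamma related gene ifng1r, singled out after its values were seen and too low to test, had 11, 0 and 3 counts in mutants with CA-Stat3 and 1 and 0 counts in mutants with WT-Stat3. Siblings had 1 count in 1 library and none in the other 4, and wildtypes had none in 5. Mutant CA-Stat3 replicate 1 holds most of these counts.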
